A study of Homo sapiens with 6 samples.

Results

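The 34 genes described here encode the proteins that modify, fold, export, trim and arrange fibrillar collagen, and they were measured in an Ewing sarcoma cell line with and without the propeptide of lysyl oxidase (LOX). They were taken from a list of collagen hydroxylases, galactosyltransferases, chaperones, propeptide proteases and fibril regulators, with 1 probe per gene, the brightest on average over the arrays. All 34 were found among the 20499 genes named on the array, by 45 probes in all. In 32 of the 34 the brightest probe passed the filter, which asks for 3 or more of the 6 arrays well above background, and was tested, among 16590 genes tested in the same way. The other two, P4HA3 and TLL2, were not well above background on any array.

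RNA came from 3 samples of A673/TR/empty cells and 3 samples of A673/TR/LOX-PP cells, hybridised in 1 colour to Agilent SurePrint G3 arrays. A673 is an Ewing sarcoma cell line, and all 6 samples share its tetracycline repressor (TR), a lentiviral backbone and selection for stable integration. The control cells hold an empty vector, whereas the A673/TR/LOX-PP cells carry the part of LOX that is cut off when the enzyme matures. The labels give doxycycline, which releases the repressor, at 1 uM for 72 h on all 6 samples, but the methods are explicit for the LOX-PP cells alone, and so it is not settled that the controls received it. The control and LOX-PP cells are separately selected populations, the methods do not say which clone or pool went onto the arrays, and so the construct and the selection cannot be told apart. The methods describe the 3 samples of a group as separate experiments, and the p-values measure the spread between them.

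Fibrillar collagen is made as procollagen in the endoplasmic reticulum, where selected prolines and lysines are hydroxylated, some hydroxylysines receive a galactose, and dedicated chaperones hold the chains until the triple helix has formed. Large COPII carriers export the trimer, proteases remove its N- and C-terminal propeptides, small leucine-rich proteoglycans set the diameter of the growing fibril, and lysyl oxidases cross-link it. Hydroxylation of the telopeptide lysines decides which kind of cross-link LOX can start, which ties these genes to the enzyme whose propeptide was expressed. BMP1, which removes the C-propeptide of procollagen, also releases the LOX propeptide from its precursor.

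Values below are log2 signals over the 75th percentile of the array, so that a difference of -1 is 2-fold lower. Between 56.9% and 74.8% of the gene spots on an array were well above background. The LOX probe itself was at -0.09, 0.36 and 0.11 in the controls and at -0.12, -0.68 and -1.29 in the LOX-PP samples (difference -0.82 ± 0.33 (SE), adjusted p = 0.217). It did not rise with the label, and whether it lies inside the propeptide cDNA is unknown here. In other experiments the paper reports LOX-PP mRNA induced by doxycycline in A673/TR/LOX-PP cells, and the propeptide in their medium. The LOX probe gives no such check for the arrays. Every direction below thus depends on the sample labels, and "LOX-PP arrays" means the libraries labelled A673/TR/LOX-PP. Adjusted p-values come from limma with Benjamini-Hochberg adjustment over all 32647 probes tested. The Ewing sarcoma markers NR0B1, NKX2-2, STEAP1, CD99, LIPI, PRKCB, CCND1, CCK, GLI1 and BCL11B were well above background on all 6 arrays.

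Of the 32 members tested, 6 were lower on the LOX-PP arrays and 0 were higher at an adjusted p under 0.05. The 6 were PLOD2, P3H2, FKBP10, TLL1, PCOLCE2 and LUM. In bulk RNA, fewer cells of a kind and less RNA per cell cannot be told apart. The 6 made up 18.8% of the members tested, where 3.36% of all genes tested were called lower and 3.71% were called higher. Without adjustment 10 members were lower and 2 higher at p under 0.05, where 23.7% of all genes tested passed that level in either direction. The median difference of the members was -0.33, compared with 0.03 over all genes tested, and 23 of 32 members (71.9%) had a difference below 0 against 47.5% of all genes. Every LOX-PP array lay below every control array for 11 members (34.4%), a pattern that 18.2% of all genes showed, and above for 3 (9.38%), against 15.4% of all genes. Taken array by array, the median deviation of the members from their own mean over the 6 arrays was 0.11, 0.20 and 0.24 in the controls and -0.28, -0.30 and -0.19 on the LOX-PP arrays. The groups did not overlap in this measure, whereas the same median over all genes tested ran from -0.12 to 0.06 with both groups mixed. Leaving out replicate 1 or 2 of the control arrays reduced the members called lower to 1, and the genes called in all from 1173 (7.07% of those tested) to 272 or 304. Replicate 1 of the LOX-PP arrays was on a slide of its own, and within the slide of the other 5 arrays the same 6 members were called lower and 0 higher.

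**Figure D1:**
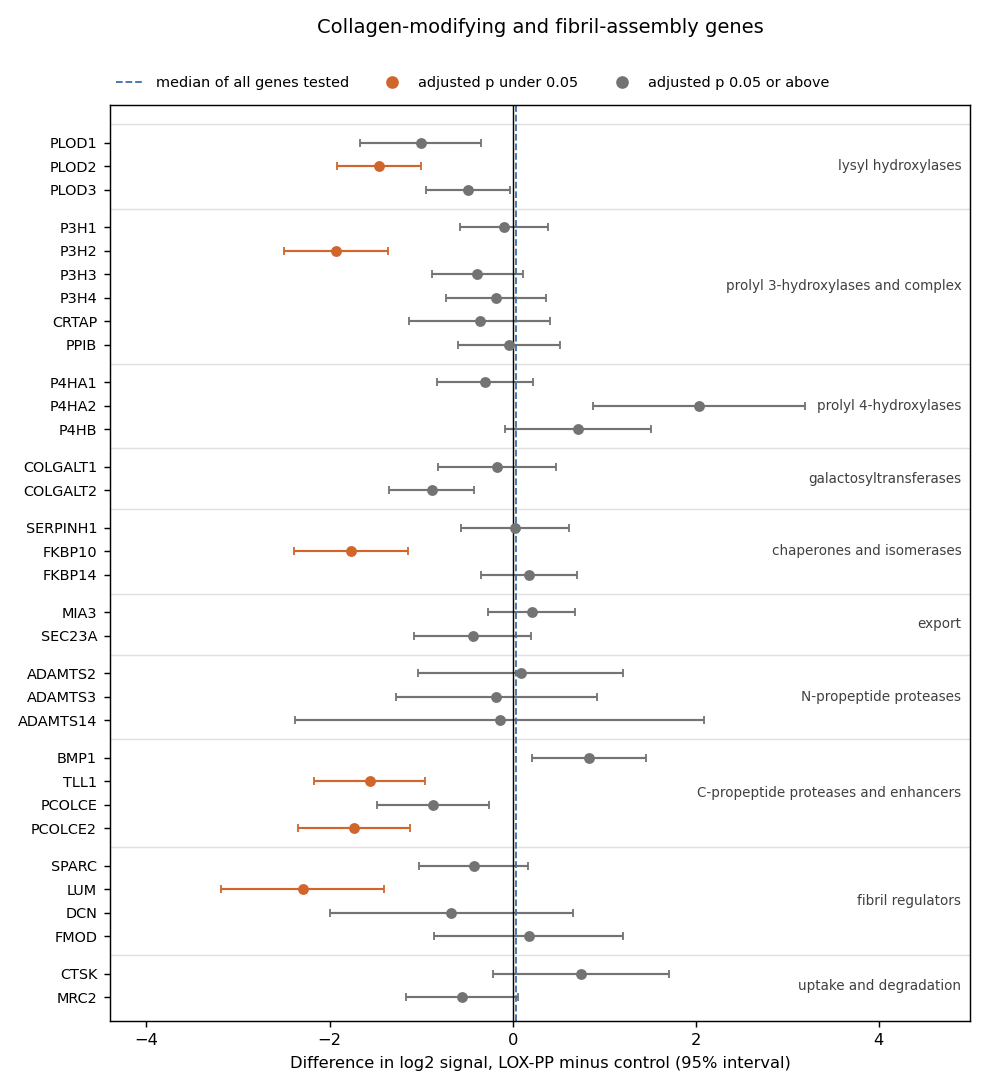
Difference in log2 signal between LOX-PP and control arrays (n = 3 each) for the 32 members tested, arranged by role, with 95% intervals from limma; orange points passed an adjusted p of 0.05 and the dashed line is the median of all genes tested. The 6 orange points all lie left of 0, from -1.46 for PLOD2 to -2.29 for LUM, whose signal was near background, while P4HA2 stands far to the right with a wide interval.

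The promoters of 4 of the 6 lower genes were available and are shown because these genes were called lower in the same comparison. Whether they are regulated together was not tested. Each is the 250 bases before a RefSeq start (GRCh38.p14), 5′ to 3′ on the strand of the gene, and P3H2 has 2 starts. The windows are chr3:146161185-146161434 for PLOD2, chr3:190120898-190121147 and chr3:190122279-190122528 for P3H2, and chr3:142889084-142889333 for PCOLCE2, all on the minus strand, and chr4:165872987-165873236 on the plus strand for TLL1. Capitals mark any match, on either strand, to ACGTG (the core that hypoxia-inducible factors bind), GGGCGG (the GC box), TATAAA (the TATA box), CCAAT (the CCAAT box), TGACTCA (the AP-1 site) or GGAAGGAA (a tandem of the ETS core, of the kind bound by EWS/FLI1).
PLOD2: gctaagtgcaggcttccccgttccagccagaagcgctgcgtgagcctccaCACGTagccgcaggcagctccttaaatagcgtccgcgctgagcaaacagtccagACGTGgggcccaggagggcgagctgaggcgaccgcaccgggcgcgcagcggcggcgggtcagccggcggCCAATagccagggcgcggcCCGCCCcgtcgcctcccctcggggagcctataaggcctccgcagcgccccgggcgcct
P3H2, start 1: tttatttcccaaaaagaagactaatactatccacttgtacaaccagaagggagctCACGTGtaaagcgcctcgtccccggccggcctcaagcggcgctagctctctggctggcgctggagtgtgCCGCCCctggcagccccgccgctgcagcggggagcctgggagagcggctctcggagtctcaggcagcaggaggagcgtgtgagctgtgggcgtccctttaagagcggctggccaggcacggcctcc
P3H2, start 2: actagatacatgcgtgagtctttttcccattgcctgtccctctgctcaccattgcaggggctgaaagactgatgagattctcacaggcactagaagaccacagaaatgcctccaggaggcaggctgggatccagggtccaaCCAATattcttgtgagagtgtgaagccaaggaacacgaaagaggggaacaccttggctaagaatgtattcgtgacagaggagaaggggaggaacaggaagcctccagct
PCOLCE2: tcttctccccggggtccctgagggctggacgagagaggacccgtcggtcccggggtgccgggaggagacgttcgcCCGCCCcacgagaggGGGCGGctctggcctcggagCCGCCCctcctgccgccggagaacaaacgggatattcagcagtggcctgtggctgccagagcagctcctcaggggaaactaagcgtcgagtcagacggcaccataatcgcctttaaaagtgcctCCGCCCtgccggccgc
TLL1: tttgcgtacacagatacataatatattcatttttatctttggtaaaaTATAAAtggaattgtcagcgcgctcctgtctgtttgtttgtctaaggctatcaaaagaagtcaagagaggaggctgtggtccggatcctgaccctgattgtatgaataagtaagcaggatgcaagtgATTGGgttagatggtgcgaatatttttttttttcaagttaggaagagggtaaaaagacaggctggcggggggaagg

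PLOD2 held ACGTG at 2 places with 1 GC box and 1 CCAAT, and the P3H2 window at start 1 held CACGTG, in which ACGTG is read on both strands over overlapping letters. ACGTG occurred in 7 of the 26 windows available for 24 member genes (26.9%) and in 18.5% of all 35116 windows of the table. PCOLCE2 held 4 GC boxes, a motif found in 73.1% of member windows and in 42.6% of all windows. TLL1 had no GC box but a TATAAA, which 10.72% of all windows held, and a CCAAT, which 32.0% held. G and C made up 68% of the PCOLCE2 window and 40.4% of the TLL1 window, where the median of all windows was 58%. The part of GC content in the shares of GC boxes was not tested. TGACTCA and GGAAGGAA were in 0 of the 26 member windows, against 4.2% and 3.06% of all windows. None of the motifs searched was in the windows of all 4 genes, and the matches describe letters only.

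The lysyl hydroxylases all had a difference below 0, and PLOD2 passed the test. PLOD2, which hydroxylates the telopeptide lysines, was at 2.48, 2.66 and 2.54 on the control arrays and at 1.11, 1.08 and 1.12 on the LOX-PP arrays. The LOX-PP values were nearly equal and lay 1.37 below the lowest control. The difference was -1.46 ± 0.19 (SE, n = 3 per group; adjusted p = 0.00928), which is 2.75-fold. The call was lost without replicate 1 (adjusted p = 0.0741) or replicate 2 (adjusted p = 0.0680) of the control arrays and with no filter on dim probes (adjusted p = 0.0546). PLOD1, which acts on helical lysines, was at 2.92, 3.07 and 3.18 against 1.54, 2.25 and 2.37. Its groups did not overlap but the difference of -1.004 (95% interval -1.67 to -0.34) had an adjusted p of 0.0940, and its dimmer probe gave -0.28 with overlapping groups. PLOD3, which also transfers glucose to the galactosyl residue, differed by -0.49 (95% interval -0.95 to -0.03, adjusted p = 0.208), again without overlap, from 4.69 to 4.72 in the controls and from 4.15 to 4.33 on the LOX-PP arrays.

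Among the prolyl 3-hydroxylases and their complexes P3H2 alone passed the test. P3H2, which 3-hydroxylates prolines of fibrillar and basement membrane collagens, was at 3.24, 3.71 and 3.63 on the control arrays and at 1.58, 1.83 and 1.39 on the LOX-PP arrays. The groups were 1.41 apart. The difference was -1.93 ± 0.24 (SE; adjusted p = 0.00738), a 3.81-fold lower signal, and it missed the threshold without replicate 2 of the control arrays (adjusted p = 0.0527). P3H1 forms a complex with CRTAP and the isomerase PPIB that modifies a single proline of the collagen chain, and P3H3 works with the cofactor P3H4 alongside PLOD1. None of these 5 was called. P3H1 differed by -0.09 (95% interval -0.57 to 0.39), although its dimmer probe gave 0.60 with the LOX-PP arrays above the controls (adjusted p = 0.151). PPIB differed by -0.04 (-0.60 to 0.52) and CRTAP, a dim probe, by -0.36 (-1.14 to 0.41). P3H3 lay below its controls on every LOX-PP array, by -0.38 (-0.89 to 0.12), and P3H4 differed by -0.19 (-0.73 to 0.36).

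The prolyl 4-hydroxylases, whose product stabilises the triple helix, included the largest positive difference of any member tested. P4HA2, 1 of the catalytic alpha subunits, was at -0.75, -0.78 and 0.71 on the control arrays and at 1.41, 1.44 and 2.43 on the LOX-PP arrays. Every LOX-PP array was above every control, yet replicate 3 stood higher than the other two in both groups. The difference of 2.03 ± 0.49 (SE; 95% interval 0.88 to 3.19) had an adjusted p of 0.0632, and without replicate 3 of the control arrays it was 2.52 (adjusted p = 0.0254). P4HA1, the major alpha subunit, differed by -0.30 (-0.83 to 0.22, adjusted p = 0.485). P4HB, the beta subunit that is also protein disulfide isomerase, differed by 0.71 at its brighter probe, with the LOX-PP arrays from 5.89 to 7.09, and by -0.05 at the other, so the probes disagreed and neither was called. P4HA3 ranged from -7.72 to -5.82 over the 6 arrays, not well above background on any.

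Of the galactosyltransferases, which add galactose to hydroxylysine, COLGALT2 was at 1.84, 1.73 and 1.81 on the control arrays and at 0.83, 0.85 and 1.05 on the LOX-PP arrays. The groups were clearly apart. With a difference of -0.89 ± 0.20 (SE) it stood just outside the threshold (adjusted p = 0.0512), and its dimmer probe, well above background on 1 of the 3 LOX-PP arrays, gave -0.52. COLGALT1 overlapped between the groups and differed by -0.17 (-0.82 to 0.47).

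FKBP10 encodes FKBP65, a prolyl isomerase of the endoplasmic reticulum that assists both procollagen and the PLOD2 protein; inherited loss of either FKBP10 or PLOD2 causes Bruck syndrome, a bone fragility disorder with joint contractures. Its signal was 2.29, 1.66 and 2.26 in the controls and 0.20, 0.55 and 0.16 on the LOX-PP arrays. The groups were 1.11 apart, with replicate 2 the nearest to the other group on both sides. The difference was -1.77 ± 0.26 (SE; adjusted p = 0.0142), or 3.40-fold. It was lost without replicate 1 of the control arrays (adjusted p = 0.0952) or replicate 3 of the LOX-PP arrays (adjusted p = 0.0503), with no filter on dim probes (adjusted p = 0.0640) and in the methods' t-test (adjusted p = 0.0638). SERPINH1, the collagen chaperone HSP47, differed by 0.03 (-0.57 to 0.62) and FKBP14, a related isomerase, by 0.18 (-0.34 to 0.70). Both had overlapping groups. For export, MIA3 (TANGO1, which loads procollagen into COPII carriers) differed by 0.21 (-0.27 to 0.68) and SEC23A (an inner coat subunit of these carriers) by -0.44 (-1.08 to 0.20), neither called. The 3 dimmer probes of MIA3 differed by 0.41, 0.55 and -0.59.

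**Figure D2:**
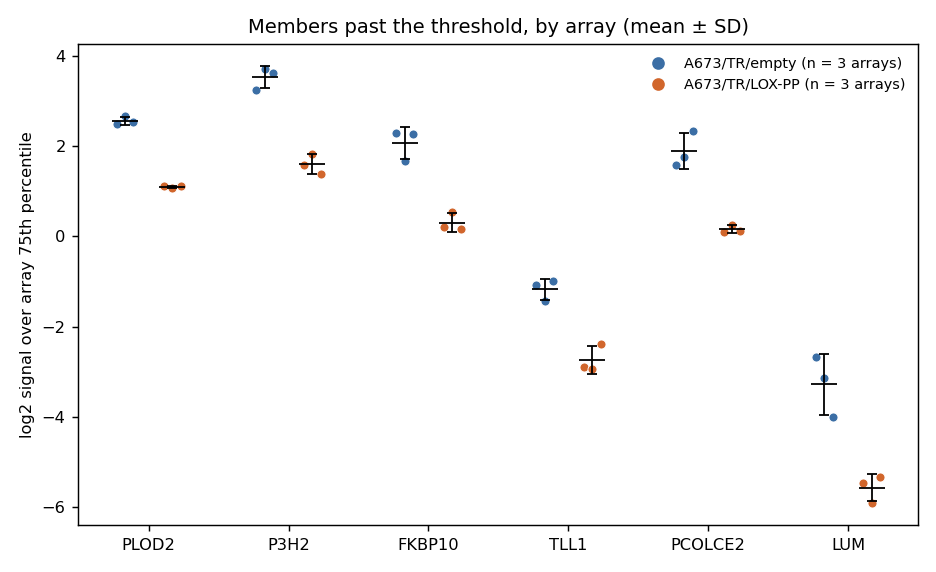
Log2 signal over the 75th percentile of the array for the 6 members past the threshold, with 1 point per array (blue, A673/TR/empty; orange, A673/TR/LOX-PP) and black bars for the mean ± SD (n = 3). The orange points lie below every blue point for each gene, and the LOX-PP arrays cluster most tightly for PLOD2 (SD 0.02) and PCOLCE2 (SD 0.08).

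The proteases that remove the N-propeptide were dim. ADAMTS2 and ADAMTS3 lay between -5.12 and -3.34 and ADAMTS14 between -6.41 and -2.85, with 2 of 3 control and 1 of 3 LOX-PP arrays well above background for ADAMTS14. Their differences were 0.09, -0.18 and -0.14 with overlapping groups, and the interval for ADAMTS14 ran from -2.38 to 2.09.

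Among the proteases that remove the C-propeptide and their enhancers, TLL1 and PCOLCE2 passed the test. TLL1, a tolloid-like protease, was at -1.08, -1.44 and -0.99 on the control arrays and at -2.89, -2.94 and -2.38 on the LOX-PP arrays. The groups were 0.94 apart and the difference was -1.56 ± 0.25 (SE; adjusted p = 0.0188), or 2.96-fold. The other TLL1 probe was lower by 2.09 (adjusted p = 0.00404), though only 2 of the 3 LOX-PP arrays measured it above background. The call at the brighter probe was lost without any of the 3 control arrays (adjusted p = 0.121, 0.0678 and 0.0573 without replicates 1 to 3) and without LOX-PP replicate 2 (adjusted p = 0.0622), with no filter on dim probes (adjusted p = 0.0816) and in the methods' t-test (adjusted p = 0.0680). BMP1, the main C-proteinase, was at -1.46, -2.10 and -1.33 on the control arrays and at -0.78, -0.85 and -0.76 on the LOX-PP arrays. It was above its controls on every LOX-PP array, but the difference of 0.83 (0.21 to 1.45) had an adjusted p of 0.126. TLL2 ranged from -7.90 to -5.83, not well above background on any array.

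PCOLCE2, an enhancer that binds the C-propeptide and speeds its removal, was at 1.59, 1.76 and 2.34 on the control arrays and at 0.11, 0.25 and 0.11 on the LOX-PP arrays. The groups were 1.33 apart. The difference of -1.74 ± 0.26 (SE; adjusted p = 0.0142) was 3.33-fold, and it was lost without replicate 1 (adjusted p = 0.0588) or replicate 2 (adjusted p = 0.0700) of the control arrays, with no filter on dim probes (adjusted p = 0.0647) and in the methods' t-test (adjusted p = 0.0626). PCOLCE, the more widely studied enhancer, was at 3.44, 3.31 and 3.01 against 2.39, 2.72 and 2.04. All of its LOX-PP values were below its controls, with a difference of -0.87 (-1.49 to -0.26) and an adjusted p of 0.111.

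Lumican (LUM), a small leucine-rich proteoglycan that regulates fibril diameter, had a signal near background. Its signal was -2.68, -3.15 and -4.01 in the controls and -5.47, -5.91 and -5.34 on the LOX-PP arrays, with 2 of 3 control arrays and 1 of 3 LOX-PP arrays well above background. The groups did not overlap, and the difference was -2.29 ± 0.37 (SE; adjusted p = 0.0191). The size depends on how dim values are treated: the difference was -1.53 with a common floor (adjusted p = 0.0525) and -1.12 under normexp (adjusted p = 0.0463). The call was also lost under quantile normalization (adjusted p = 0.0663), with no filter on dim probes (adjusted p = 0.0748) and in the methods' t-test (adjusted p = 0.0963). Omitting control replicate 1 or 2 also ended the call (adjusted p = 0.0885 and 0.101), as did omitting LOX-PP replicate 2 or 3 (adjusted p = 0.0628 and 0.0521). Decorin (DCN), which binds the same fibrils, ranged from -0.69 to 0.46 in the controls and from -1.46 to 0.50 on the LOX-PP arrays, a difference of -0.67 (-2.00 to 0.66). Fibromodulin (FMOD) differed by 0.17 (-0.86 to 1.21), and SPARC, a collagen-binding matricellular protein, by -0.43 (-1.02 to 0.17). All 3 overlapped between groups and were not called.

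The 2 genes of collagen uptake and degradation were not called. Cathepsin K (CTSK), which cuts the triple helix, ranged from 2.79 to 3.47 in the controls and from 3.21 to 4.69 on the LOX-PP arrays (difference 0.74, -0.22 to 1.70). The endocytic collagen receptor MRC2 ranged from 4.67 to 5.01 and from 4.03 to 4.68 (difference -0.56, -1.17 to 0.05).

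To compare related genes without the scaling between arrays, the log2 ratio of each pair of paralogs was taken within each array, for 17 pairs. The ratio shows unequal change, not which gene changed, and with 3 arrays against 3 the exact two-sided permutation test cannot go below p = 0.10 (0.17 after adjustment over the 17 pairs). In 10 pairs the groups did not overlap, each at that smallest p. How often other pairs of genes do so was not computed; among single genes 18.2% lay wholly below and 15.4% wholly above. Some pairs share a gene, and all of the 10 but P4HA1/P4HA2 and COLGALT1/COLGALT2 hold a member called lower. The count thus largely restates the calls. The P4HA1/P4HA2 ratio moved by -2.34, with an SD of up to 0.79 within a group. The LUM/FMOD and LUM/DCN ratios did not overlap either, but LUM was well above background on 3 of the 6 arrays, so no size is given for them. The BMP1/TLL1 ratio moved by 2.40, from -0.66 to -0.34 on the control arrays to between 1.62 and 2.11 on the LOX-PP arrays. P3H2 moved against both P3H1 and P3H3 (P3H1/P3H2 by 1.84 and P3H2/P3H3 by -1.55), and FKBP10/FKBP14 changed by -1.94. For the lysyl hydroxylases PLOD2/PLOD3 was tight in both groups, -2.14 ± 0.10 and -3.11 ± 0.10 (SD, n = 3), whereas PLOD1/PLOD2 overlapped with a change of 0.46. The COLGALT1/COLGALT2 and PCOLCE/PCOLCE2 ratios moved by 0.71 and 0.87 with gaps of 0.21 and 0.08 between the groups, which is small against their SDs of up to 0.35 and 0.61.

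**Figure D3:**
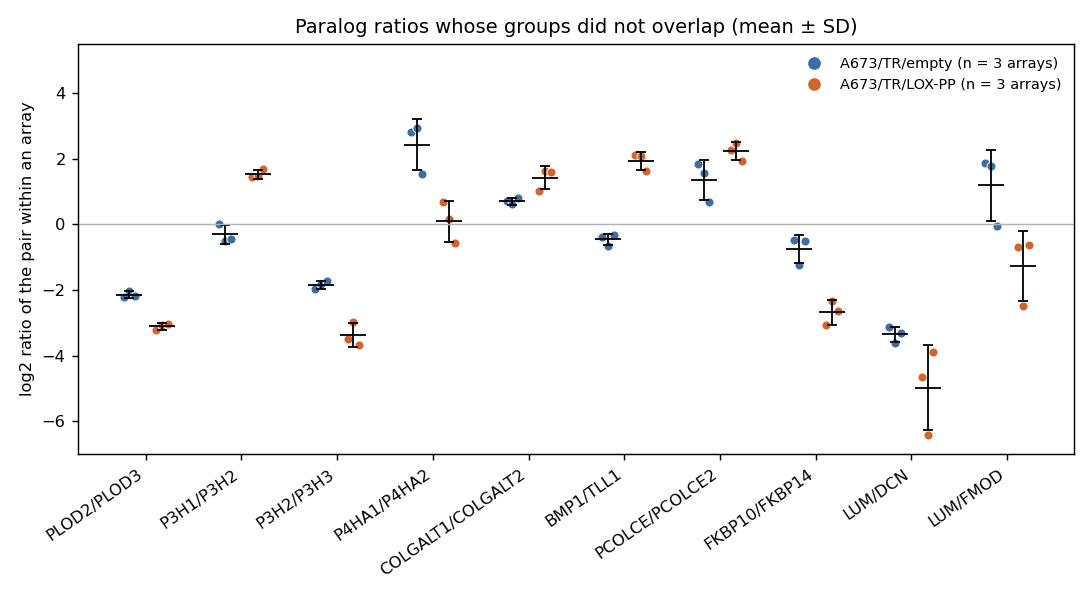
Log2 ratio of the signals of 2 related genes within an array, for the 10 of 17 pairs whose groups did not overlap, with 1 point per array (blue, A673/TR/empty; orange, A673/TR/LOX-PP) and black bars for the mean ± SD (n = 3). The PLOD2/PLOD3 and BMP1/TLL1 pairs show narrow groups well apart, and the LUM pairs show the widest spread.

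PLOD2, PCOLCE2 and P3H2 all lie on chromosome 3, as does CRTAP. The 885 genes tested on that chromosome had a median difference of 0.03, and 3.50% of them were called lower. Of the 20 tested genes nearest in order to each called gene, 10 on either side, 2 were called lower around PLOD2, around PCOLCE2, around TLL1 and around LUM, with medians of -0.58, -0.45, -0.42 and -0.44. PLOD2 and PCOLCE2 lie near each other on chromosome 3. Their sets of neighbours may share genes, and each may hold the other called gene. This overlap was not checked, so their counts and medians are not separate observations. Around P3H2 and FKBP10 the medians were 0.43 and 0.57, and 2 and 4 neighbours were called higher. Of the 20 neighbours, 6 of those of P3H2 and 4 of those of FKBP10 had a difference below 0, compared with 13 for PLOD2, 14 for PCOLCE2, 16 for TLL1 and 17 for LUM. Over all genes tested, 3.36% were called lower, 3.71% were called higher and 47.5% had a difference below 0.

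The fibrillar collagens on which these proteins act were described from a list of 11 chains, 9 of them tested. Of these, 3 were called lower and 0 higher, with a median of -0.21, where 3.36% of all genes tested were called lower. COL1A2, the alpha2 chain of type I collagen, was at 5.22, 5.22 and 5.05 on the control arrays and at 2.41, 2.28 and 2.05 on the LOX-PP arrays (difference -2.92 ± 0.21 (SE), adjusted p = 0.00121). COL1A1, which pairs with it in the same trimer, was at 2.07, 2.32 and 2.29 against 3.22, 2.67 and 2.74, a difference of 0.65 (0.09 to 1.22) that was not called (adjusted p = 0.175). COL5A2, of the type V collagen that starts fibrils, differed by -1.06 (adjusted p = 0.0430), and COL2A1 of cartilage collagen by -2.69 (adjusted p = 0.00184) with only 1 of 3 LOX-PP arrays well above background.

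**Figure D4:**
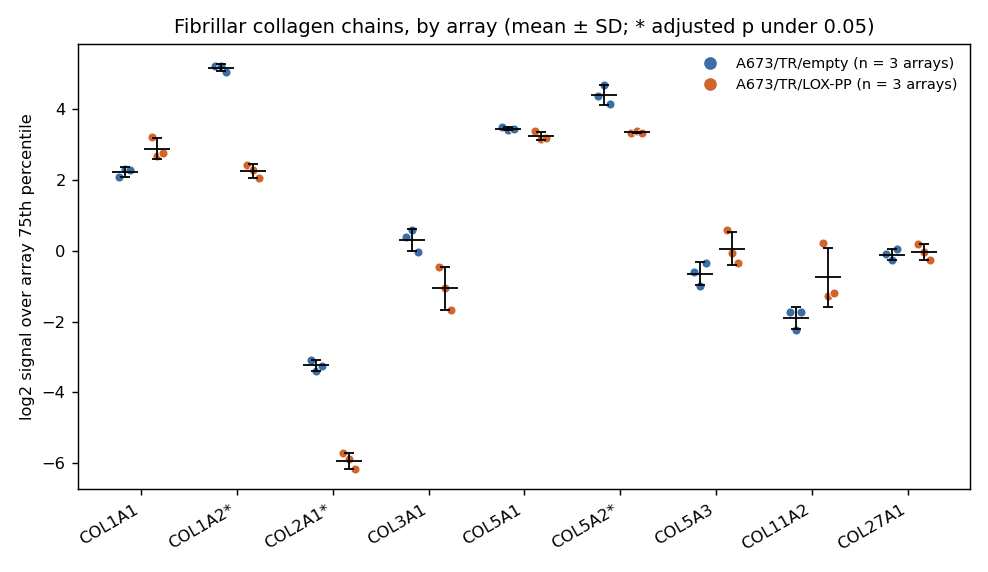
Log2 signal over the 75th percentile of the array for the 9 fibrillar collagen chains tested, with 1 point per array (blue, A673/TR/empty; orange, A673/TR/LOX-PP), black bars for the mean ± SD (n = 3) and an asterisk for an adjusted p under 0.05. COL1A2 lies at 5.16 on the control arrays and 2.25 on the LOX-PP arrays on average, while COL1A1 lies at 2.22 and 2.88.

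Of 23 other fibril-associated proteins, 19 were tested, 5 were lower and 0 higher, with a median of -0.11. Over all genes tested, 3.36% were called lower and 3.71% higher, which is the share to set beside each count here. The 3 with the largest statistic were periostin (POSTN, an adhesive matrix protein), TGFBI (a collagen-binding protein induced by TGF-beta) and tenascin-X (TNXB, which spaces fibrils). They differed by -4.63 (adjusted p = 0.00311, 2 of 3 LOX-PP arrays above background), -3.45 (adjusted p = 0.00700) and -1.73 (adjusted p = 0.0118). No lysyl oxidase was called among the 4 tested, with a median of -0.55 (unadjusted p under 0.05 for LOX and LOXL1), where LOXL1 differed by -0.81 and LOXL2 by 0.16. Of 30 genes of COPII and procollagen export 1 was called, with a median of -0.08, a count near the 3.36% of all genes tested that were called lower. The called gene was STX18, a SNARE of the endoplasmic reticulum required for procollagen export, at -1.43 (adjusted p = 0.0118). Of 24 other folding factors of the endoplasmic reticulum 3 were lower and 0 higher, with a median of -0.30. They were FKBP11 (-1.09, adjusted p = 0.0299), P4HTM (a prolyl 4-hydroxylase of another class, -1.57, adjusted p = 0.0297) and the chaperone HYOU1 (-1.10, adjusted p = 0.0311).

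Markers of other cells were read from lists in the same fit, where 3.36% of all genes tested were called lower and 3.71% higher. Of 12 fibroblast markers, 11 were tested, 2 were lower (COL1A2 and LUM, both described above, as are the list's COL1A1 and DCN) and 1 higher, FAP, a cell surface protease, by 3.65 (adjusted p = 0.00113, 2 of 3 control arrays above background). The markers well above background on all 6 arrays were PDGFRB, THY1, COL1A1, COL1A2, COL3A1, DCN, ACTA2, TAGLN and S100A4, and the log2 of the summed signal of the list ran from 6.67 to 6.71 on the control arrays and from 6.30 to 6.61 on the LOX-PP arrays. COL1A2 weighs on this sum, with the highest control mean of the list (5.16, against 2.25 on the LOX-PP arrays). Of the 11 tested, 6 had a difference below 0. COL1A2, COL3A1 and LUM lay below their controls on every LOX-PP array. ACTA2 (0.86) and S100A4 (0.64), neither called, lay above theirs, as did COL1A1 and FAP. The part of this list in the lower members was not tested. Of the blood cell markers, PTPRC, CD3E, CD14 and ITGAM were above background on all arrays, with CD14 at -1.83 on average in the controls, and ITGAM was higher by 1.31 (adjusted p = 0.0313). Of 9 endothelial and epithelial markers, CDH5, VWF, EPCAM, KRT8 and KRT18 were above background on all arrays, CDH1 on none, and 0 were called (unadjusted p under 0.05 for PECAM1, VWF and KRT19).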

How the data were processed

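Total RNA of 6 samples was hybridised in 1 colour to Agilent SurePrint G3 arrays. The authors deposited the intensity of every spot as written by Agilent Feature Extraction (version 10.7), corrected for background, and a table of log2 values equal to the scaled signal centred on each probe's median. Here that deposited intensity was put on the log2 scale after removing control and outlier spots, averaged over spots of the same probe, and scaled by subtracting the array's 75th percentile. The filter kept 32647 of 50599 probes, those well above background on 3 or more of 6 arrays. limma (version 3.58.1, R 4.3.3) was fitted to them with no block, and calls were made at an adjusted p (Benjamini-Hochberg) under 0.05. The software's flags marked outliers and spots above background. The fit was tested on simulated arrays with independent noise and changes larger than those of the called members. That checks the code, not how often changes of the sizes reported here would be found. A RefSeq table (GRCh38.p14) named 28170 probes by accession; the array design uses an earlier assembly, so only names, chromosomes and gene order were taken from it. With 3 arrays per group, their number limits the precision.

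All 34 members are named, with LOX, and of each other list the members past the threshold, at most the 3 with the largest statistic; for cell type lists also those above background on all arrays, of which 1 is not reported here. COL1A1, ADM and the uncalled oxidases were named after their values were seen, and CA9 was also named outside this rule. The members and lists were chosen with earlier results of these data known. Alternatives were other scalings, normexp on the median spot signal (offset 50), a common floor, 2 filters, slide and replicate blocks, the methods' t-test, averaging a gene's probes and leaving out each array.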

Additional observations from a re-analysis of the deposited data

How the results depend on the processing

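The members called lower were 6 under quantile normalization, the median scaling, the authors' values, normexp, a common floor, the strict filter, the slide as a block and averaging a gene's probes, although under quantile normalization and the floor COLGALT2 passed in place of LUM, as it did under the strict filter, which left LUM untested. Because replicate 1 of the LOX-PP arrays was alone on its slide, the slide block gave the same fit as leaving that array out. They were 1 with no filter on dim probes (P3H2), 2 with the replicate block (P3H2 and TLL1, while PLOD2 stood at an adjusted p of 0.0515, FKBP10 at 0.0597, PCOLCE2 at 0.0505 and LUM at 0.0543) and 3 in the methods' t-test, of which PLOD2 and P3H2 were among the 6 and COLGALT2 (adjusted p = 0.0354) was not (the same t-test gave 378 genes in all, no filter 349 and the replicate block 576, against 1173). P4HA2 was called higher, the 1 member to be so, under normexp, the strict filter, the replicate block and with a gene's probes averaged. The correlations of same-numbered arrays, taken on deviations from the group mean, were 0.27, -0.39 and 0.23. Not every array correlated best with its own number. With 3 arrays per group these values cannot settle whether the replicate numbers pair the samples. Leaving out 1 array at a time gave from 272 to 1195 genes, from 1 to 6 members lower, from 0 to 1 higher, a member median from -0.43 to -0.29 and from 10 to 13 paralog pairs without overlap. Removing an array cannot make separate groups overlap, so the count of pairs could not fall below 10 and is no check on it. The member median was -0.42 under quantile normalization, -0.24 under normexp and also with no filter, and -0.43 with the slide as a block. Each lay further from the main value of -0.33 than 0.06, the pooled SD of the member median between replicates of a group. Between scalings, the median over genes tested ran from -0.04 under quantile normalization to 0.07 under normexp.

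No called member changed direction under any alternative run. Those that did had small differences and were not called. Under quantile normalization P3H1 was 0.030, PPIB 0.0056, SERPINH1 -0.12, ADAMTS2 -0.31 and FMOD -0.26. Under normexp SERPINH1 was -0.015, ADAMTS3 0.081 and ADAMTS14 0.35, and with the floor ADAMTS14 was 0.27. With the slide as a block COLGALT1 was 0.068, SERPINH1 -0.094 and ADAMTS3 0.22, and the mean of both P3H1 probes was 0.25. Without 1 array the range was -0.21 to 0.10 for PPIB, -0.33 to 0.068 for COLGALT1, -0.094 to 0.21 for SERPINH1, -0.33 to 0.50 for ADAMTS2, -0.64 to 0.22 for ADAMTS3, -0.84 to 0.94 for ADAMTS14 and -0.26 to 0.43 for FMOD. Where calls changed the cause was not tested. The blocks and omissions leave fewer degrees of freedom. With no filter more probes are tested, and the dim probes also enter the variance that limma shares between probes, so the p-values themselves change. Signal near background limits LUM, ADAMTS3 and ADAMTS14, which were not well above background on every array.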

Other observations

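PLOD2, P4HA1 and P4HA2 are known targets of hypoxia-inducible factors, so a list of 20 other hypoxia-inducible genes was read in the same fit. Of 19 tested, 0 were called in limma (2 at an unadjusted p under 0.05, a level that 23.7% of all genes tested passed), with a median difference of -0.06. CA9, the most specific marker of the list, was well above background on 1 control and 1 LOX-PP array and was not tested. The largest difference was that of ADM, at -1.74 (adjusted p = 0.0574), with every LOX-PP array below every control. Of the 19 tested, 11 had a difference below 0. Of 14 genes of the TGF-beta response, which includes many matrix genes, 13 were tested, 1 was lower and 0 higher, with a median of -0.20. Over all genes tested, 3.36% were called lower. In limma 7 of the 13 had an unadjusted p under 0.05 in either direction, a level that 23.7% of all genes tested passed. A difference below 0 was seen in 7 of the 13. The lower gene was LTBP1, which tethers latent TGF-beta to the matrix, at -2.23 (adjusted p = 0.0175), with 1 of 3 LOX-PP arrays above background. Among the 10 Ewing sarcoma markers CCK, a peptide hormone gene, was lower by 2.54 (adjusted p = 0.0100) and the other 9 were not called, with a median of 0.19 over the list.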
